A study of Mus musculus with 15 samples.

Results

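The genes described here are 45 enzymes and regulators that handle oxidants and glutathione, measured in mouse aorta: the superoxide dismutases, catalase, glutathione peroxidases, peroxiredoxins, the thioredoxin system, heme oxygenases and the quinone reductase Nqo1, glutathione synthesis and recycling, the regulators Nfe2l2 and Keap1, and glutathione S-transferases. They were taken by name from a list of such enzymes, and all 45 were found among the 34714 genes of the deposited table. RNA sequencing was done on aortas of wild-type mice in 3 groups of 5 libraries. Sham mice were the controls. AngII mice were infused with angiotensin II, a vasoconstrictor peptide, at 750 ng per kg per minute to cause hypertension. AngII+RvE1 mice had the same infusion plus resolvin E1, a lipid mediator that helps end inflammation, injected into the peritoneum at 2 µg per kg per day. The labels give no strain, age, sex, duration or time of collection. Whether each library is a different mouse is not stated, so a p-value here weighs a difference against the scatter among libraries only, which may be technical.

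Superoxide dismutases turn superoxide into hydrogen peroxide, which catalase, glutathione peroxidases and peroxiredoxins then remove. Glutathione and thioredoxin supply the electrons for the glutathione peroxidases and peroxiredoxins and are kept reduced by enzymes that use NADPH. The transcription factor NRF2, encoded by Nfe2l2 and held in check by KEAP1, binds antioxidant response elements in front of many of these genes, and in the artery wall SOD3 is secreted by smooth muscle and protects nitric oxide from superoxide.

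The core letters of the antioxidant response element, TGACNNNGC, were searched on both strands in RefSeq promoter windows of GRCm38.p6, each 300 bases long with 250 before and 50 after a start. Windows were found for 38 of the 45 members, 49 windows in all, and 9 windows of 9 members held the letters (18.4%), beside 12.4% of all 32851 windows. The members were Gsta3, Nfe2l2, Srxn1, Gstm5, Gclm, Prdx1, Mgst1, Txnrd1 and Sod1. The stretch around the match is shown for the 8 in which it lies before the start, so that the letters can be read in their context; in Srxn1 it lies after the start. Each is written on the strand of the gene, which is the minus strand for Nfe2l2 and the plus strand for the others. Capitals mark the match, which reads GCNNNGTCA where it lies on the opposite strand.
Gsta3, chr1:21240444-21240492: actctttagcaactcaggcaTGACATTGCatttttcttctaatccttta
Nfe2l2, chr2:75704875-75704913: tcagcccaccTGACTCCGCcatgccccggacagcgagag
Gstm5, chr3:107895792-107895840: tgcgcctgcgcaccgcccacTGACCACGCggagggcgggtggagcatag
Gclm, chr3:122245403-122245451: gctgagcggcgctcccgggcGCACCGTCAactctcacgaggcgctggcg
Prdx1, chr4:116685446-116685494: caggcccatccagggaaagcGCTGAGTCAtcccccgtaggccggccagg
Mgst1, chr6:138140451-138140499: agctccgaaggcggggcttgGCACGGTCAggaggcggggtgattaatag
Txnrd1, chr10:82859094-82859142: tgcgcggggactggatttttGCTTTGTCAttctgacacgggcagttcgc
Sod1, chr16:90220686-90220734: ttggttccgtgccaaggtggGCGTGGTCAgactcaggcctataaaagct
The match of Prdx1 lies 124 bases before the transcription start and that of Gstm5 33 bases before it. For Txnrd1 the start is an internal one, at 82859206 on chromosome 10 in a locus that runs from 82833951 to 82897724, and the starts used for Gclm and Gsta3 also lie inside their loci. A match of these letters is a description of the window and shows neither binding nor a cause.

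The table names no unit, and its values are read here as FPKM (scaled for length and for depth). Their sum per library was between 385846 and 514281. Read depth is unknown. Smooth muscle markers, which define the labelled tissue, were detected in every library, and their sum over 12 genes was 1808 to 12654 FPKM in Sham. It was 1256 to 3558 FPKM in the AngII libraries and 5576 to 10070 FPKM with resolvin E1. All 8 brown fat markers and all 12 adipocyte markers were above 0 in every library too. AngII libraries 3, 4 and 5 stood apart, with lymphocyte markers summing to 851, 289 and 1314 FPKM against 3.95 to 67.7 in the other 12 libraries.

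In Sham aorta 3 of the 5 glutathione peroxidases were among the 4 highest members, while Gpx8 and Gpx7 ranked 22 and 36 of 45. Gpx4, which removes lipid peroxides in membranes, had the highest mean at 1673 ± 952 FPKM (SD, n = 5), followed by the plasma peroxidase gene Gpx3 at 939 ± 272 and the cytosolic dismutase gene Sod1 at 592 ± 182. Gpx3 overlapped both of the others, whereas the lowest Gpx4 value (967) lay above the highest Sod1 value (854). The lowest means were those of the microsomal transferase gene Mgst2 (5.90 ± 2.38), Nqo1 (6.82 ± 3.21) and the glutathione reductase gene Gsr (8.02 ± 0.912). Spread within Sham differed widely between members. The coefficient of variation ran from 4.15% to 56.9% with a median of 28.9%, and Keap1 at 13.3 ± 0.551 FPKM was the steadiest.

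Few of these genes could be told from Sham under angiotensin II alone. Of the 45 members, 1 rose and 0 fell in AngII against Sham at a limma adjusted p under 0.05. The background over all 12603 genes tested was 2.36% called higher and 0.809% called lower, 3.17% in all. All 45 members passed the filter on low values and were tested. The median log2 difference of the members was -0.02, beside 0.11 for all genes tested, and 22 members lay above 0 and 23 below. For 38 of the 45 members the 95% interval of the difference stayed within 1 log2 unit of 0 on either side. Unadjusted p was under 0.05 for 6 members (3 higher and 3 lower), or 13.3%, beside 26.2% of all genes tested. No member had every AngII library below every Sham library, as 0.778% of genes did, and 1 of 45 had no overlap in either direction, beside 3.7% of genes.

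The gene that rose was Gstt2, a theta class glutathione S-transferase on chromosome 10 from 75831842 to 75837419. Its values were 12.1, 10.2, 13.0, 8.59 and 8.52 FPKM in Sham and 16.1, 13.9, 16.4, 26.3 and 14.9 in AngII. Every AngII library lay above every Sham library, as 2.92% of all genes tested did. The log2 difference was 0.67 (SE 0.17, adjusted p = 0.0415), from a mean of 10.5 ± 2.02 to 17.5 ± 5.02 FPKM. In AngII+RvE1, Gstt2 was 11.8, 10.7, 14.7, 12.1 and 13.4 FPKM, a difference of -0.42 from AngII that did not pass (adjusted p = 0.112). The call was a narrow one. It was lost in 16 of 22 other settings, which include a fit of the 2 groups alone (adjusted p = 0.139) and leaving out AngII library 4, where the gene was highest (difference 0.52, adjusted p = 0.0853). That library also stood apart in skeletal muscle markers, whose sum over 8 genes was 1251 FPKM against 4.55 to 109 in the other 14. Leaving out AngII libraries 3, 4 and 5 together gave 0.49 (adjusted p = 0.552), in a fit that called only 20 genes higher and 2 lower of all 12603. Macrophage markers were higher in AngII too. Their sum over 12 genes was 232 to 349 FPKM in Sham and 290, 582, 3162, 707 and 1322 in AngII libraries 1 to 5. None of the 12 was at 0, and 5 of the 11 tested were called higher. The part of either marker list in the Gstt2 result was not tested. In bulk RNA, fewer cells of a type and less RNA per cell cannot be told apart.

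Gstt1, the other theta class member, did not pass. It was 99.2, 49.96, 39.8, 57.5 and 49.5 FPKM in Sham and 32.7, 43.5, 42.4, 53.8 and 35.0 in AngII, a log2 difference of -0.45 (adjusted p = 0.171). Its groups overlapped, and Sham library 1 was far above the rest. Of the 11 cytosolic transferases, 3 lay above 0 and 8 below, with a median of -0.25, and the mu class genes Gstm1, Gstm2, Gstm4 and Gstm5 were all among the 8 (-0.41, -0.48, -0.35 and -0.25, adjusted p = 0.252, 0.187, 0.243 and 0.505). Members of the mu, alpha and pi classes have close paralogs, and reads may be split between them.

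Gpx8, a peroxidase of the endoplasmic reticulum, came next to passing. It was 87.7, 56.7, 50.4, 62.1 and 70.3 FPKM in Sham and 89.1, 108, 82.1, 102 and 88.3 in AngII, with a log2 difference of 0.53 (SE 0.15, adjusted p = 0.0559). Only Sham library 1 reached into the AngII range. Its locus lies within that of Cdc20b on chromosome 13 from 113042757 to 113046430, so reads of the neighbour may be counted with it. Gpx1, Gpx3, Gpx4 and Gpx7 differed by -0.06, 0.44, -0.40 and -0.17 (adjusted p = 0.879, 0.468, 0.560 and 0.736).

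The dismutase gene Sod3, on chromosome 5 from 52363804 to 52369738, was 600, 346, 195, 316 and 342 FPKM in Sham and 207, 296, 206, 192 and 118 in AngII. The log2 difference of -0.79 (SE 0.27) did not pass (adjusted p = 0.101), and Sham library 3 lay within the AngII range. Smooth muscle markers were lower in this comparison too: 11 of the 12 lay below 0, 2 fell and the median was -1.24. Their part in the Sod3 values was not tested. Sod1 and the mitochondrial dismutase gene Sod2 differed by 0.10 and -0.28 (adjusted p = 0.813 and 0.656). Catalase (Cat) was 217 ± 59.2 FPKM in Sham and 233 ± 70.6 in AngII.

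Hmox1, the inducible heme oxygenase that breaks heme down to biliverdin, iron and carbon monoxide, had the widest spread. It was 10.2, 5.52, 7.73, 19.0 and 9.89 FPKM in Sham and 9.83, 20.1, 863, 26.0 and 51.3 in AngII. AngII library 3 was alone at its level, and AngII library 1 was within the Sham range. The log2 difference was 2.19 (SE 0.83, adjusted p = 0.119), and 1.16 (adjusted p = 0.135) without AngII library 3. That library also held the highest macrophage marker sum of the 15, 3162 FPKM, and their part in the Hmox1 value was not tested. The constitutive gene Hmox2 was 44.3 ± 13.97 in Sham and 52.6 ± 2.86 in AngII (adjusted p = 0.341).

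Glutathione synthesis and recycling genes did not pass either. Gclc and Gclm, the catalytic and modifier subunits of glutamate-cysteine ligase, differed by 0.24 and 0.32 (adjusted p = 0.267 and 0.213), glutathione synthetase (Gss) by 0.29 (0.388) and Gsr by 0.38 (0.391). Gsr was 6.79 to 10.1 FPKM in 4 AngII libraries and 28.1 in AngII library 3. Nfe2l2 was 34.9 ± 3.62 FPKM in Sham and 34.3 ± 3.61 in AngII, a log2 difference of -0.03 with a 95% interval of -0.31 to 0.26. Keap1 was 13.3 ± 0.551 and 15.2 ± 1.92 FPKM (0.17, adjusted p = 0.269).

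No member of the peroxiredoxin and thioredoxin families passed in this comparison. The differences of the 6 peroxiredoxin genes and Srxn1 ran from -0.26 (Srxn1) to 0.17 (Prdx6), and 2 of the 7 were above 0. Those of Txn1, Txn2, Txnrd1, Txnrd2 and Txnip ran from -0.11 to 0.30, with 3 of 5 above 0. For every gene of both families the 95% interval lay within 1 log2 unit of 0. The mitochondrial and membrane transferases Gstk1, Mgst1, Mgst2 and Mgst3 ran from -0.11 to 0.30 and did not pass either.

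**Figure D1:**
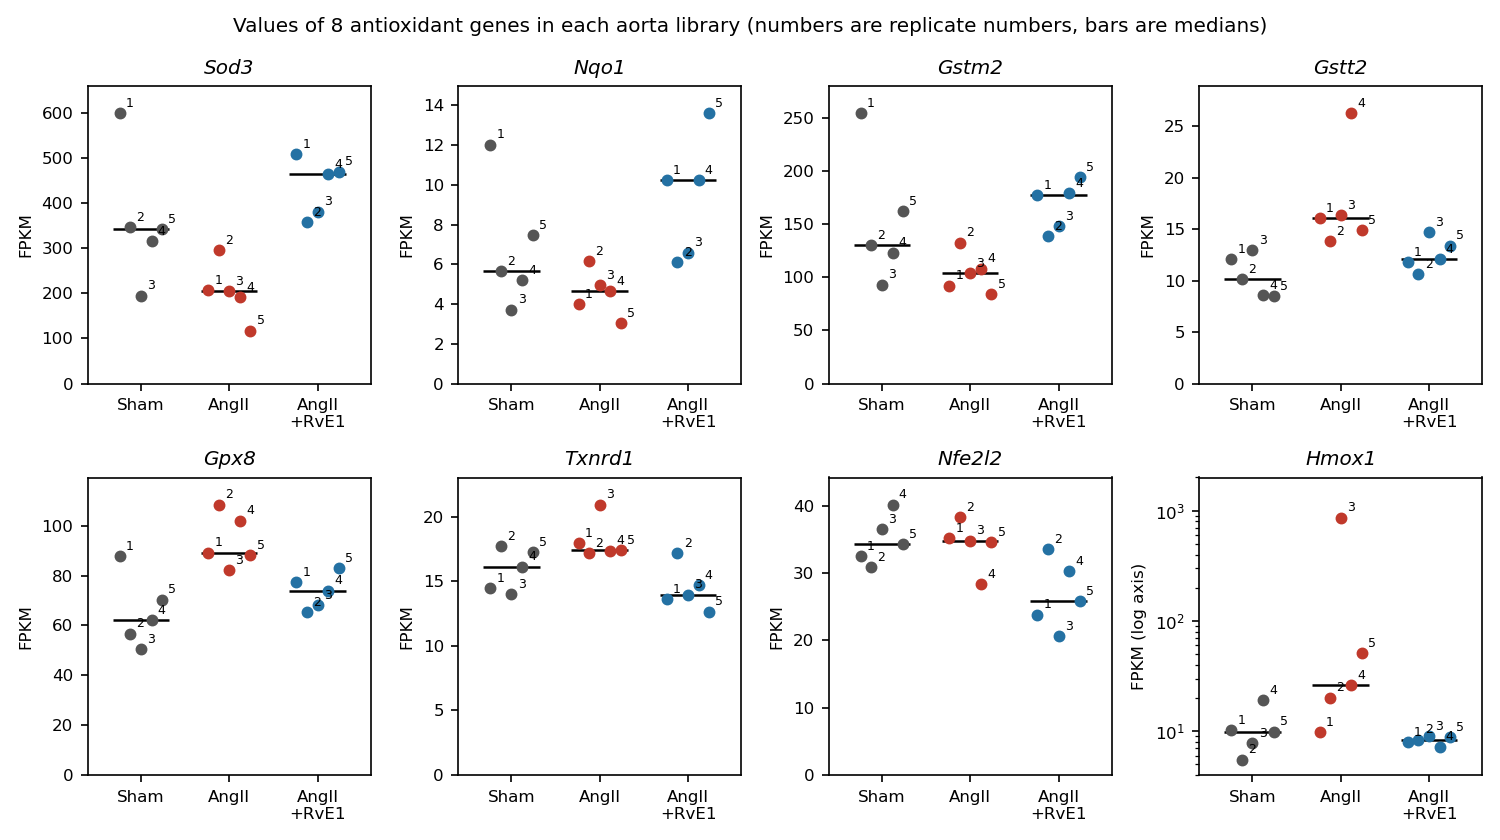
FPKM (vertical axis, logarithmic for Hmox1 only) of 8 genes in each of the 15 libraries, by group; numbers beside the points are replicate numbers and bars are group medians. All AngII+RvE1 values of Sod3 (358 to 509) lie above all AngII values (118 to 296), and Hmox1 reaches 863 in AngII library 3 alone.

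With resolvin E1 added to the infusion, the extracellular dismutase gene Sod3 was the one member called. In AngII+RvE1 against AngII 1 of the 45 members rose and 0 fell, beside 4.21% and 4.31% of all genes tested. The share of members called, 1 of 45, was under the 8.52% of genes called in either direction. The median log2 difference was -0.03 for the members and -0.11 for all genes. For 34 members the 95% interval stayed within 1 log2 unit of 0, and unadjusted p was under 0.05 for 13, or 28.9% (5 higher and 8 lower), beside 29% of all genes. Of the 45 members 2 had no overlap and were higher and 2 had no overlap and were lower, beside 11.1% of genes in either direction. This comparison shares the AngII libraries with the one before it.

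Sod3 was 509, 358, 381, 465 and 470 FPKM in AngII+RvE1 and, as given above, 118 to 296 in AngII. The lowest value with resolvin E1 exceeded the highest without it, as for 5.87% of genes tested. The mean rose from 204 ± 63.4 to 437 ± 64.0 FPKM, a log2 difference of 1.14 (SE 0.27, 95% interval 0.56 to 1.73, adjusted p = 0.0261). Smooth muscle markers were higher in AngII+RvE1 than in AngII too. Their sum was 2063, 3558, 1571, 2455 and 1256 FPKM in AngII libraries 1 to 5 and 9004, 5576, 7009, 9738 and 10070 in AngII+RvE1 libraries 1 to 5, with none of the 12 at 0, and 9 of the 12 rose. Sod3 and the marker sum were both lowest in AngII library 5, and in Sham both were highest in library 1 (600 and 12654 FPKM) and lowest in library 3 (195 and 1808). Other libraries did not match in this way. In Sham libraries 2 and 5 Sod3 was 346 and 342 FPKM, with sums of 4769 and 8547. In AngII+RvE1 Sod3 was highest in library 1 and the sum in library 5. The part of smooth muscle content in the Sod3 difference was not tested. Without AngII libraries 3, 4 and 5 the difference was 0.81 and did not pass (adjusted p = 0.415). That fit called 0 genes higher and 6 lower of all 12603, so missing the threshold in it says little about Sod3 by itself. The Sod3 difference also missed the threshold without any 1 of AngII libraries 3, 4 or 5 or AngII+RvE1 libraries 1, 4 or 5 (adjusted p = 0.0503 to 0.0774).

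Nqo1 and Gstm2 ran in the same direction as Sod3 without passing. Nqo1, which reduces quinones and is a textbook NRF2 target, was 4.01, 6.14, 4.94, 4.63 and 3.06 FPKM in AngII and 10.2, 6.11, 6.59, 10.3 and 13.6 in AngII+RvE1. The groups overlapped, since AngII library 2 was just above AngII+RvE1 library 2, and the log2 difference was 0.87 (SE 0.26, adjusted p = 0.0504). Gstm2 was 92.0, 133, 104, 108 and 84.1 FPKM in AngII and 177, 139, 148, 179 and 195 in AngII+RvE1. Its groups did not overlap, and its log2 difference was 0.69 (SE 0.22, adjusted p = 0.0666). Both genes passed when libraries were rescaled by their median ratio (adjusted p = 0.0306 and 0.0346). Without AngII libraries 3, 4 and 5 neither passed (0.74 and 0.58, adjusted p = 0.451 and 0.495), in a fit that called 0 of all 12603 genes higher. In Sham both were highest in library 1 and lowest in library 3, as Sod3 was.

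Members of the thioredoxin system all had differences below 0, as did the median of all genes tested (-0.11), and none passed. Txnrd1, the cytosolic thioredoxin reductase, was 17.9, 17.2, 20.9, 17.4 and 17.4 FPKM in AngII and 13.6, 17.2, 13.97, 14.7 and 12.6 in AngII+RvE1. No AngII+RvE1 library exceeded an AngII library, as for 5.23% of genes, yet library 2 of both groups was within rounding of the same value. The log2 difference was -0.32 (SE 0.11, adjusted p = 0.0703). Txnip, which binds and inhibits thioredoxin, differed by -0.49 (adjusted p = 0.146), Txn1 by -0.22 (0.333), and the mitochondrial pair Txn2 and Txnrd2 by -0.02 and -0.02 (0.974 and 0.976).

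Nfe2l2 was 35.2, 38.3, 34.8, 28.4 and 34.6 FPKM in AngII and 23.8, 33.5, 20.6, 30.3 and 25.8 in AngII+RvE1. The groups overlapped, and the log2 difference of -0.36 (SE 0.13) did not pass (adjusted p = 0.0991). Keap1 differed by -0.15 (adjusted p = 0.316). Among the genes of glutathione synthesis and recycling, Gclc, Gclm, Gsr and Gss differed by -0.28, -0.27, -0.20 and 0.09 (adjusted p = 0.184, 0.275, 0.659 and 0.800).

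Hmox1 was 7.92, 8.39, 9.08, 7.22 and 8.87 FPKM in AngII+RvE1, below the lowest AngII value of 9.83. The log2 difference was -2.40 (SE 0.83, adjusted p = 0.0788), -1.36 (0.0567) without AngII library 3 and -0.71 (0.454) without AngII libraries 3, 4 and 5. The last of these fits called only 6 of all 12603 genes lower. The AngII+RvE1 libraries were tightly grouped, with a mean of 8.30 ± 0.750 FPKM. Macrophage marker sums were 279 to 361 FPKM in AngII+RvE1, and 7 of the 11 macrophage genes tested fell.

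Among the peroxidases, Prdx4, the peroxiredoxin of the endoplasmic reticulum, and Gpx7, a peroxidase of the same compartment, differed by 0.55 and 0.56 (adjusted p = 0.168 and 0.189), and Gpx8 by -0.35 (0.130). Prdx4 was 32.4 ± 6.70 FPKM in AngII and 48.4 ± 12.8 in AngII+RvE1, with overlapping groups. Catalase was 327, 237, 140, 266 and 196 FPKM in AngII and 178, 220, 176, 117 and 81.2 in AngII+RvE1 (log2 difference -0.62, adjusted p = 0.180). Its 3 lowest values of the 15 were AngII+RvE1 libraries 5 and 4 and Sham library 1, the same libraries that held the 3 highest smooth muscle sums. The match ended there: the next lowest value was that of AngII library 3 (140). Its smooth muscle sum, 1571 FPKM, was below that of every Sham and AngII+RvE1 library. Adipocyte markers moved in this comparison too: their sum over 12 genes was 15204 to 22008 FPKM in AngII and 8881 to 15745 in AngII+RvE1, 3 of the 12 fell, 11 lay below 0 and the median was -0.54. The part of either tissue in the catalase values was not tested. The membrane transferase gene Mgst1 and the maleylacetoacetate isomerase gene Gstz1 differed by -0.59 and -0.48 (adjusted p = 0.146 and 0.148). Of the 11 cytosolic transferases 7 lay above 0 and 4 below, from -0.48 for Gstz1 to 0.69 for Gstm2. All 4 mu class genes, Gstp1 and Gstt1 were among the 7, with Gstm1 at 0.21, Gstm5 at 0.47 and Gstt1 at 0.37 (adjusted p = 0.565, 0.186 and 0.236).

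**Figure D2:**
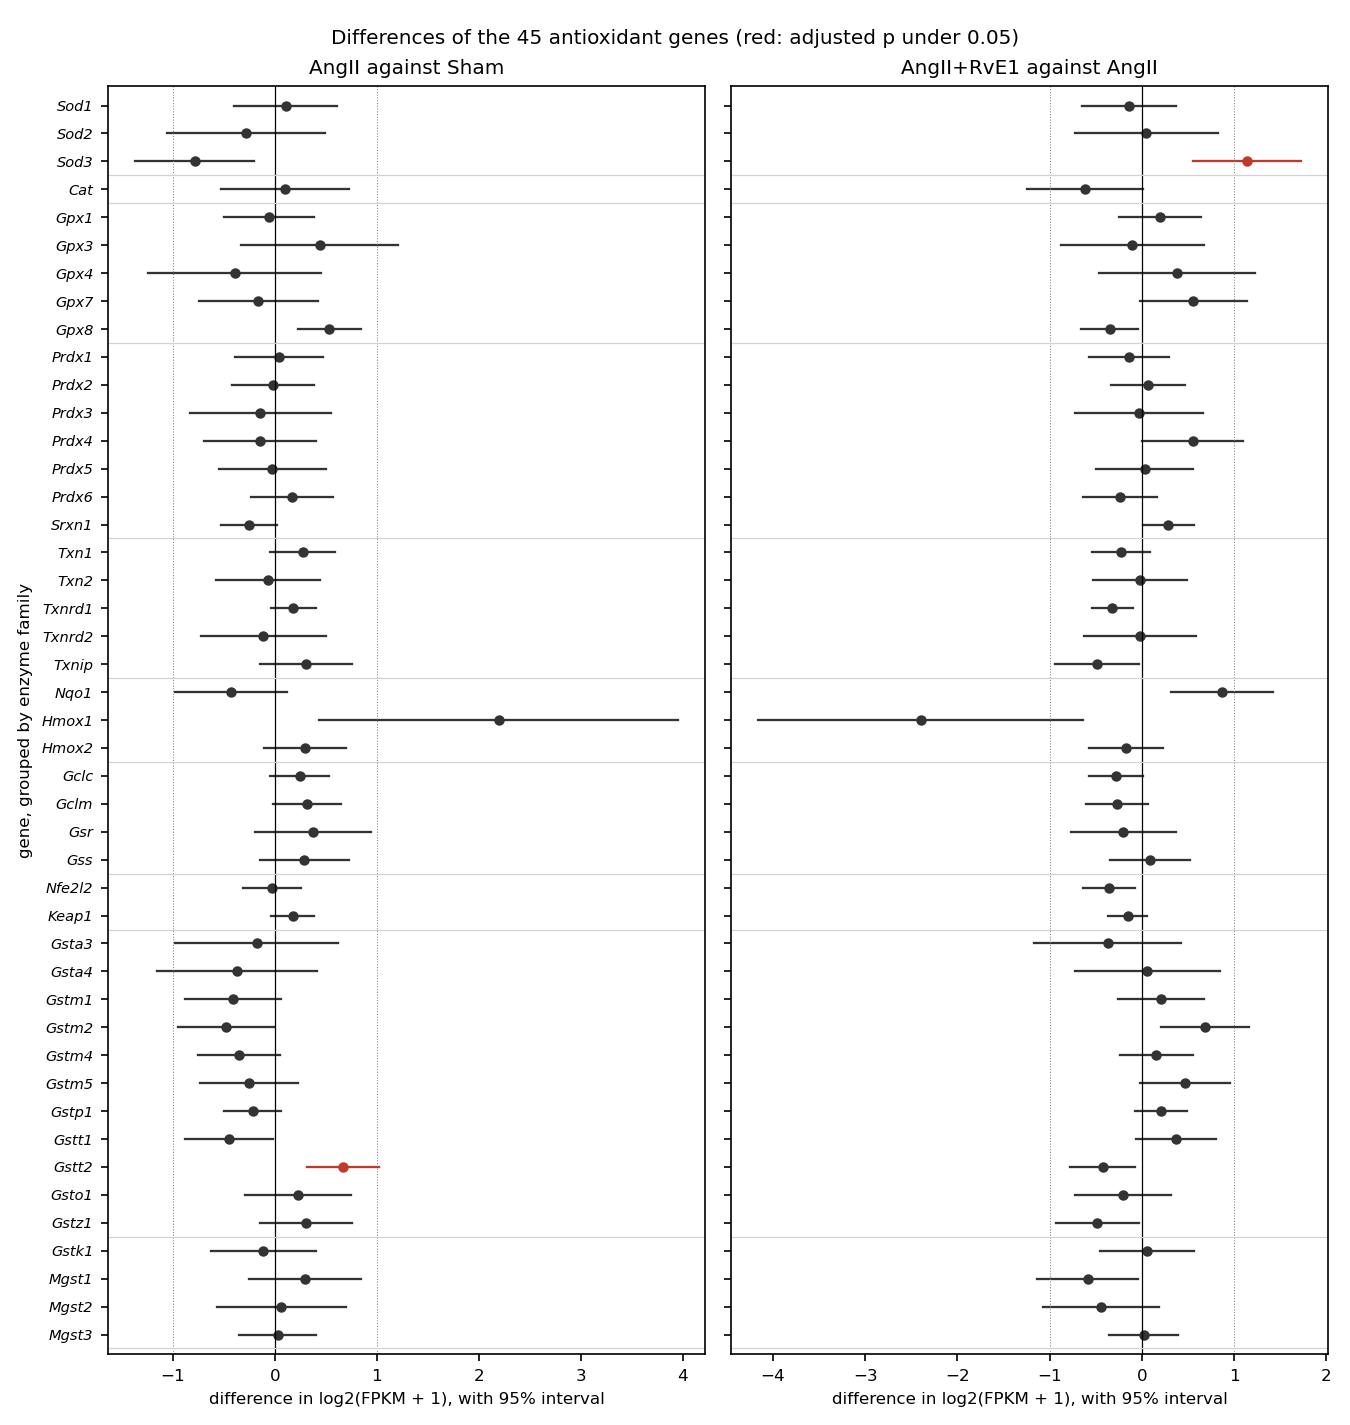
Differences in log2(FPKM + 1) of the 45 genes (points) with 95% intervals (lines), for AngII against Sham on the left and AngII+RvE1 against AngII on the right; horizontal rules separate enzyme families, dotted lines mark 1 log2 unit, and red marks an adjusted p under 0.05. Gstt2 (0.67) is red on the left and Sod3 (1.14) on the right, and the interval of Hmox1 is the widest in both panels.

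Infused mice given resolvin E1 were compared with Sham as well. None of the 45 members passed (limma, 0 higher and 0 lower, with 1 at an unadjusted p under 0.05), beside 0.0159% higher and 0.00793% lower over all genes, 0.0238% in all. For no member were the 5 libraries of one group all above those of the other, as for 1.09% of genes, and 6.69% of genes had an unadjusted p under 0.05. The member at an unadjusted p under 0.05 was Nfe2l2, at 34.9 ± 3.62 FPKM in Sham and 26.8 ± 5.13 in AngII+RvE1 (log2 difference -0.38, SE 0.13, adjusted p = 0.664). Member differences ran from -0.55 for Gsta3 to 0.44 for Nqo1, with a median of -0.01. Sod3 differed by 0.36 (95% interval -0.23 to 0.94) and Gstt2 by 0.25 (-0.10 to 0.60). For 38 members the interval stayed within 1 log2 unit of 0. Erythroid markers differed more between these groups: their sum was 5347 to 19676 FPKM in Sham and 28049 to 78373 in AngII+RvE1. All 7 tested had an unadjusted p under 0.05 and 5 had no overlap, but 0 passed. Erythroid markers also differed in AngII+RvE1 against AngII, where Sod3 was called. Their sum was 7581 to 44171 FPKM in AngII, and the median log2 difference was 1.24. All 7 lay above 0 and 6 had an unadjusted p under 0.05, but 0 passed. The part of red cell RNA in the values of the members was not tested.

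Libraries of the same group also differed widely in these genes. Sham library 3 held the highest value of the 15 for 13 members, AngII library 3 for 8 and Sham library 1 for 6. The 13 included 4 mitochondrial genes, Sod2, the peroxiredoxin gene Prdx3, Txn2 and Txnrd2, along with Sod1, Gpx1, Gpx4, Prdx2, Prdx5, Hmox2, Gsta4, Gstm4 and Mgst1. Sod2 was 61.0, 159, 210, 135 and 95.9 FPKM in Sham, 168, 144, 48.4, 108 and 76.8 in AngII and 113, 118, 151, 66.3 and 87.4 in AngII+RvE1. Prdx3 was 70.7, 185, 226, 145 and 124 in Sham, 199, 156, 68.1, 133 and 115 in AngII and 133, 131, 190, 85.6 and 103 in AngII+RvE1. Both genes were lowest in AngII library 3 and next lowest in Sham library 1, and within each group the highest and lowest libraries were the same for both. The brown fat marker sum was also highest in Sham library 3 (12452 FPKM) and lowest in AngII library 3 (902), with 2178 in Sham library 1, where it was lowest of that group. Brown fat is rich in mitochondria and surrounds the mouse thoracic aorta. The part of fat content in these values was not tested.

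The 6 members highest in Sham library 1 were Sod3, Gsta3, Gstm1, Gstm2, Gstp1 and Gstt1, and that library had the highest smooth muscle sum of all. Gstm1 was 716 FPKM there and 261 to 419 in the other 14 libraries. In AngII+RvE1 library 5, where the smooth muscle sum was 10070 FPKM, the 6 were 470, 6.04, 347, 195, 222 and 56.9. For Gsta3 that was the lowest value of all. Sham library 1 also held Ggt1, a gamma-glutamyl transferase gene, at 15.1 FPKM, against at most 1.05 elsewhere. The part of any tissue in these values was not tested. The 8 members highest in AngII library 3 were Prdx1, Txn1, Txnrd1, Hmox1, Gclc, Gclm, Gsr and Keap1. Prdx1 was 388 FPKM there and 217 to 236 in the other AngII libraries, and Gclm was 22.9 against 11.2 to 13.8.

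**Figure D3:**
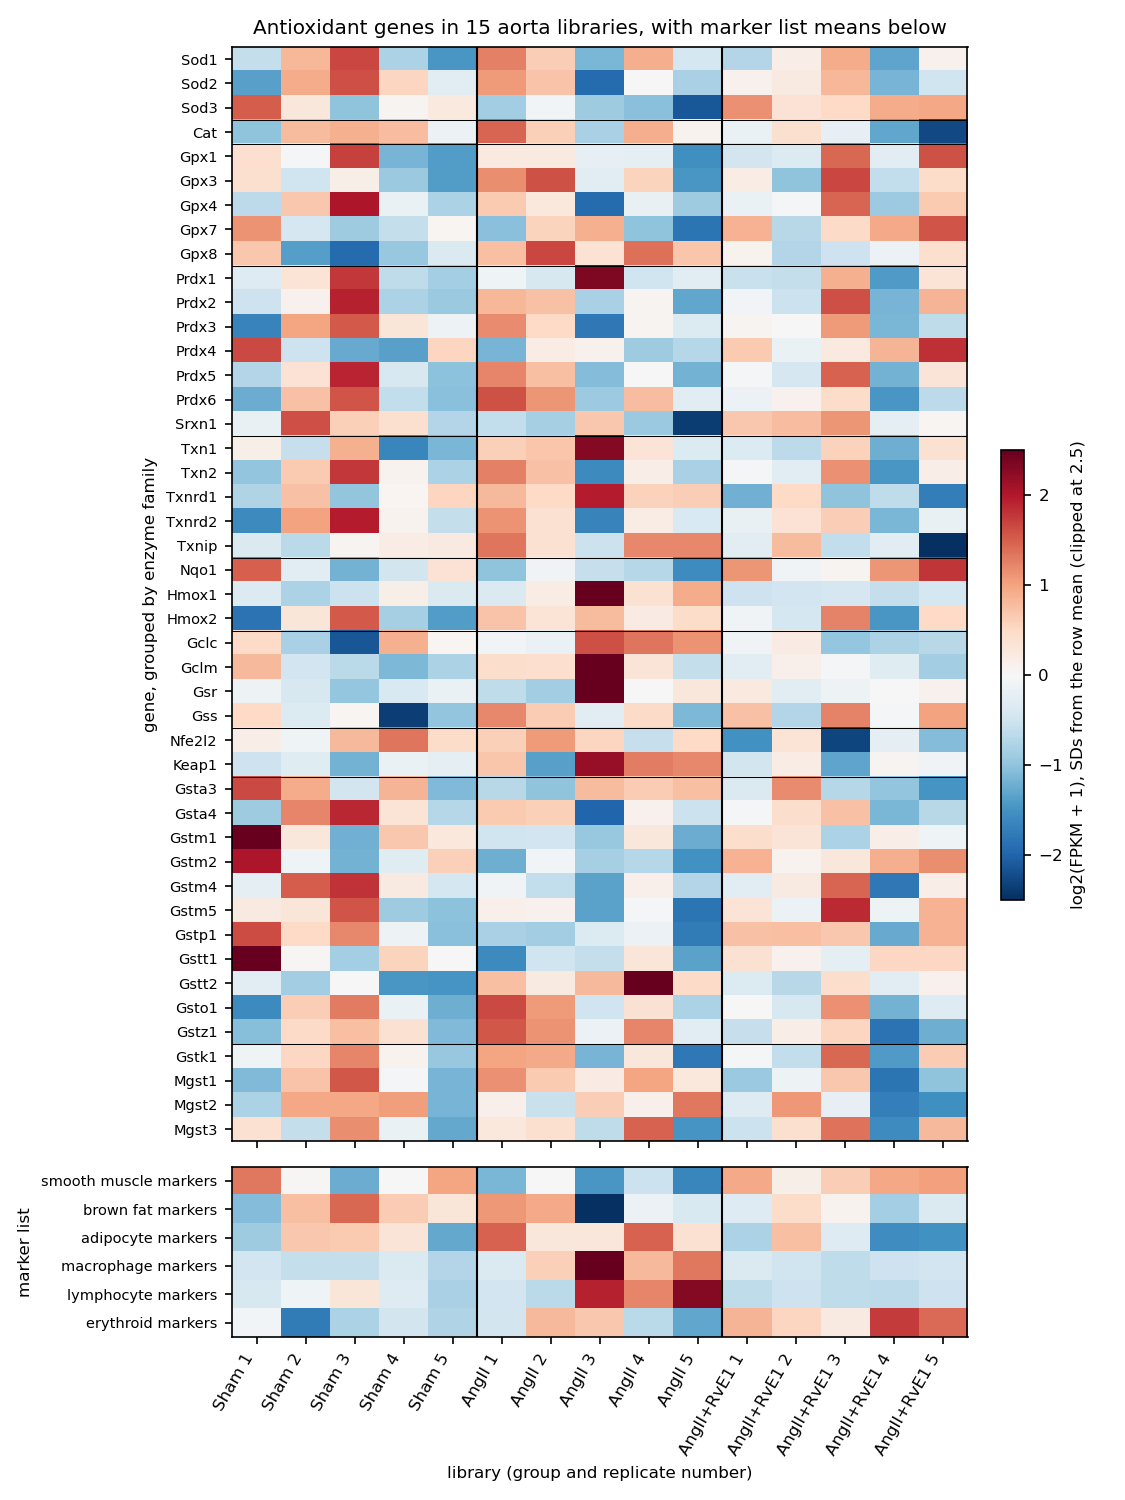
Each row is a gene (upper panel, grouped by enzyme family) or the mean of a marker list (lower panel), each column 1 of the 15 libraries; colour gives the log2(FPKM + 1) value as SDs from the row mean, red above and blue below. Sham library 3 holds the maximum of 13 genes, and AngII library 3 holds the maximum of 8 genes and of the macrophage markers.

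Other genes of the same pathways were counted in the same way. Of 25 further NRF2 target and redox supply genes 22 were tested; in AngII against Sham 0 passed (2 at an unadjusted p under 0.05), and in AngII+RvE1 against AngII 1 rose (4.55% of those tested, beside 8.52% of all genes called). It was the glycine transporter gene Slc6a9, at 4.25, 5.99, 5.01, 5.14 and 2.74 FPKM in AngII and 12.8, 7.17, 7.98, 13.4 and 12.3 in AngII+RvE1 (log2 difference 1.05, SE 0.27, adjusted p = 0.0327). The list medians in these comparisons were -0.04 and -0.08. All AngII+RvE1 libraries lay above all AngII libraries.

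Of 29 further antioxidant and thiol genes, all tested, 1 rose in AngII against Sham (3.45%, beside 3.17% of all genes called), the metallothionein gene Mt3. It was 1.60, 0.333, 1.07, 2.93 and 2.25 FPKM in Sham and 14.2, 3.50, 6.70, 16.6 and 5.17 in AngII, with no overlap (log2 difference 1.86, SE 0.40, adjusted p = 0.0300). In AngII+RvE1 against AngII 1 rose and 2 fell (10.3%, beside 8.52% of all genes). Unadjusted p was under 0.05 for 6 and 7 of the 29 in these comparisons (20.7% and 24.1%, beside 26.2% and 29% of all genes). Msrb3, a methionine sulfoxide reductase, rose from 25.8 to 50.1 FPKM in the mean (0.94, SE 0.28, adjusted p = 0.0489) and was, like Sod3, lowest in Sham library 3 and AngII library 5 within those groups. Selenop, the plasma selenium carrier, was 332, 368, 754, 486 and 585 FPKM in AngII and 293, 313, 282, 271 and 226 in AngII+RvE1, and fell by 0.81 on the log2 scale (SE 0.21, adjusted p = 0.0335). Ggt5, a gamma-glutamyl transferase, fell by 1.12 (SE 0.32, adjusted p = 0.0451). Selenop and Ggt5 were higher in AngII libraries 3, 4 and 5 than in AngII libraries 1 and 2, and without those 3 libraries neither passed (-0.34 and -0.26, adjusted p = 0.513 and 0.690). Slc6a9, Msrb3 and Mt3 missed the threshold there too (0.92, 0.77 and 1.74, adjusted p = 0.391, 0.468 and 0.361). Over all genes those fits called 0 higher and 6 lower in AngII+RvE1 against AngII, and 20 and 2 in AngII against Sham. Mt3 was second highest of the AngII group in library 1 (14.2 FPKM). In AngII+RvE1 it was 12.4, 8.75, 9.44, 5.76 and 3.65 FPKM, above every Sham library, as for 0.825% of genes tested. No gene of the 29 passed in AngII+RvE1 against Sham. None of the 7 tested of 11 further transferases, nor of the 7 tested of 8 NRF2 partner and repressor genes, passed in AngII against Sham or in AngII+RvE1 against AngII. For the transferases 3 and 2 had an unadjusted p under 0.05 (42.9% and 28.6%), and for the partners 2 and 2 (28.6% in both), where 1 gene is a large share of the list.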

How the data were processed

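RNA-seq libraries of mouse aorta, 15 in all, were compared in 3 groups of 5, assigned by sample title. The deposited table holds 1 normalised value per gene and library and names no unit, and its values are treated as FPKM; whether they are TPM over a wider gene set was not resolved. Per the submitters' processing notes the build is mm10; the sources used here do not give the aligner, quantifier or annotation. Genes at 1 or more in at least 5 libraries were kept (12603 of 34714), transformed as log2(FPKM + 1), and fitted with limma-trend (limma 3.58.1, R 4.3.3) as 1 mean per group over all libraries. The 3 contrasts were tested two-sided with Benjamini-Hochberg adjustment over all genes, at 0.05. The added 1 understates changes of low genes. Depth is unknown, so no counting interval is given. Coordinates and promoter windows are from RefSeq, GRCm38.p6. The procedure was tested on simulated data in which each gene scattered independently. Those data held no shift of tissue content between libraries, so the test cannot show how such shifts affect the calls. Members, lists, tests and alternatives were chosen with earlier results of these data known. By rule, members called or without overlap are given by library and others by fold, range and counts, and called genes of the other pathway lists are named; Nqo1, Gpx8, Gstt1, Nfe2l2, Cat, Sod2 and Prdx3 are given by library too, chosen after their values were seen.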

Additional observations from a re-analysis of the deposited data

Results flagged for a closer look

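Of 135 sets of 5 libraries (45 members in 3 groups), 8 had 1 library far from the other 4 by Dixon's criterion, and chance flags about 1 in 20. AngII library 3 accounted for 5 of the 8, all at the high end: Hmox1 at 863 FPKM (next 51.3), Prdx1 at 388 (236), Gsr at 28.1 (10.1), Gclm at 22.9 (13.8) and Txnrd1 at 20.9 (17.9). In AngII library 4, Gstt2 was 26.3 FPKM, with 16.4 next. In AngII+RvE1 library 2, Gsta3 was 22.04 FPKM, with 10.5 next. In AngII+RvE1 library 4, Gstp1 was low at 170 FPKM, with the other 4 between 217 and 222.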

How the results depend on the processing

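In AngII against Sham the count of members called, 1, was 0 with no filter on low values, with only the 2 groups compared, with the replicate block, without the 3 AngII libraries that stand apart (3, 4 and 5) and after rescaling by the median ratio, and 5 with array weights. Leaving out 1 library at a time gave 0 to 3. In AngII+RvE1 against AngII the count of 1 was 0 with no filter and without the 3 AngII libraries, 2 with a pseudocount of 0.1, 3 with only the 2 groups, 3 after rescaling and 16 with array weights (6 higher and 10 lower), which weight AngII library 4 by 6.35 and Sham library 3 by 0.323. Leaving out 1 library gave 0 to 4. In AngII+RvE1 against Sham every setting run gave 0. With the replicate block, AngII+RvE1 against AngII gave 1 member, Sod3 (adjusted p = 0.0468), and Gstt2 in AngII against Sham had an adjusted p of 0.0749. Residuals of same-numbered libraries correlated between -0.414 and 0.521 over 15 pairs, and those of different numbers between -0.539 and 0.556. Libraries correlated best with their own number in 2 of 30 checks. All 5 pairs of Sham with AngII+RvE1 were above 0 (0.0238 to 0.521), not all over 0.1, so the numbers were not taken as pairs; a shared batch was not tested. The block took the calls over all genes in AngII against Sham to 72 higher and 37 lower, and in AngII+RvE1 against AngII to 269 and 164. Under the block Mt3 passed (0.0418), and Slc6a9, Msrb3, Selenop and Ggt5 did not (0.0539, 0.0673, 0.0695 and 0.0770).

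Over these settings the Sod3 difference in AngII+RvE1 against AngII ran from 0.81 to 1.29 and passed in 14 of 22, and the Gstt2 difference in AngII against Sham ran from 0.49 to 1.18 and passed in 6 of 22; no member or pathway gene tried in this way changed sign. Rescaling moved the median of all genes in AngII against Sham from 0.11 to -0.0038 and that of the members from -0.02 to -0.15, and the calls over all genes from 298 higher and 102 lower to 259 and 282. In AngII+RvE1 against AngII it moved the calls over all genes from 531 higher and 543 lower to 819 and 479. Without the 3 AngII libraries the calls over all genes were 20 higher and 2 lower in AngII against Sham, and 0 and 6 in AngII+RvE1 against AngII. In AngII against Sham the count of members was 3 without AngII library 1, 2 without AngII library 2 or Sham library 1 or 3, and 0 without any other library. In AngII+RvE1 against AngII it was 4 without AngII library 2, 3 without Sham library 1 or 3 or AngII+RvE1 library 2, 2 without AngII library 1, and 0 without AngII library 3, 4 or 5 or AngII+RvE1 library 1, 4 or 5. The cause of these changes was not tested.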

Other observations

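Genes of macrophages that recycle iron and heme were looked at after the Hmox1 value of AngII library 3 had been seen. Slc40a1, the iron exporter ferroportin, was 49.2 FPKM in AngII library 3 and 2.43 to 4.62 in the other AngII libraries. Spic, a transcription factor of splenic red pulp macrophages, was 25.8 FPKM in AngII library 3, 3.26 and 8.80 in libraries 4 and 5, and 0.356 and 0.208 in libraries 1 and 2. Cd5l, a secreted macrophage protein gene, was 36.4 FPKM in library 3, 1.39 and 3.39 in libraries 4 and 5, and listed at 0 and at 0.0765 in libraries 1 and 2. Ftl1, the ferritin light chain, was 5254 FPKM in AngII library 3, 1614 and 1605 in libraries 4 and 5, and 633 to 1330 in the remaining 12 libraries. The scavenger receptor gene Marco was 287, 61.5 and 148 FPKM in AngII libraries 3, 4 and 5 and at most 2.67 in the other 12. These are values of single libraries, with no test.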
